A study of Mus musculus with 24 samples.

Results

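The 8 genes Insr, Irs1, Irs2, Pik3r1, Akt1, Akt2, Foxo1 and Slc2a4 carry the insulin signal from the cell surface to glucose uptake. They were listed by name and not by a rule on their values, but with earlier results of these data known. All 8 were found among the 54232 genes of the count table, which covered 24 libraries of mouse visceral adipose tissue. Each library came from 1 of 6 male C57BL6 mice in 1 of 4 groups, and the series description gives their age as 10 weeks. Control mice had a sham operation and expressed GFP, NaKtide mice had the sham operation and expressed NaKtide, PNx mice had a 5/6 nephrectomy and expressed GFP, and PNx+NaKtide mice had the nephrectomy and expressed NaKtide. NaKtide is a peptide designed to block signalling through the Na,K-ATPase and the kinase Src. All mice, controls included, ate normal chow and received an intraperitoneal lentivirus whose adiponectin promoter, active in adipocytes, drove the expressed protein, so fat depots other than the one sampled could carry it too.

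Insulin binds the insulin receptor (Insr), a tyrosine kinase that phosphorylates the adaptor proteins IRS-1 (Irs1) and IRS-2 (Irs2). These recruit PI 3-kinase through its regulatory subunit p85 alpha (Pik3r1), and the lipid that it makes brings the serine kinases AKT1 and AKT2 to the membrane. In fat cells AKT2 releases vesicles that hold the glucose transporter GLUT4 (Slc2a4) to the cell surface, and AKT keeps the transcription factor FOXO1 out of the nucleus. Most of these steps are set by phosphorylation and by the movement of proteins, neither of which is measured by RNA sequencing.

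The promoter windows of the adaptor genes Irs1 and Irs2 shared sequence. RefSeq promoter windows on GRCm38.p6, from 250 bases before to 50 bases after a start, were held for 6 of the 8 genes in 11 windows, with none for Insr and Slc2a4. The windows were searched on both strands for CACGTG, the E-box of many basic helix-loop-helix factors, for TGTTTAC, a form of the FOXO site, and for TTTTGCTC, which was picked after reading the Irs1 and Irs2 windows side by side. The stretches that hold the matches are shown because they are what the adaptor genes share and where TGTTTAC falls in Akt1. Each is given 5′ to 3′ on the minus strand with the matches in capitals.
Irs1, chr1:82291490-82291589: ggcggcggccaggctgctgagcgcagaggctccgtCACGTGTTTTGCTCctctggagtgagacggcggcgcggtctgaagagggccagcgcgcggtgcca
Irs2, chr8:11008930-11009029: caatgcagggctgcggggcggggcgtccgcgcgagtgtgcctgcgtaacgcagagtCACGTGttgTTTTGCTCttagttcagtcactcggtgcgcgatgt
Akt1, chr12:112674995-112675094: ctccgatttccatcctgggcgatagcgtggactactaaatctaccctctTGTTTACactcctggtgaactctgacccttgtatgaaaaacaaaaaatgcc
CACGTG lay in a window of Irs1 and of Irs2 and in no other window of the 6 genes, and 7.15% of the 32851 windows in the table held it. TTTTGCTC followed it closely in both, and 1.16% of all windows held that motif. The pair together was in 34 windows, 0.103% of the table. Because TTTTGCTC was picked from the Irs1 and Irs2 windows, its presence in both was fixed beforehand. The shares for it and for the pair therefore do not measure how unusual the match is. TGTTTAC was in a window of Akt1 alone among the 6 genes and in 3.65% of all windows. Other forms of the FOXO site were not searched, so the windows of the other genes, Irs1 and Irs2 included, may hold them. These matches describe the letters only.

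Libraries held between 679250 and 2979505 counts, so the 8 genes rested on few reads. Summed over the 24 libraries, Akt1 had 800 counts, Akt2 550, Pik3r1 446, Slc2a4 423, Insr 222, Irs1 195, Irs2 141 and Foxo1 126. All 8 passed the minimum of more than 10 counts that left 26116 genes for testing. Values in CPM are counts of a gene relative to all counts of the tested genes in that library, after TMM scaling. Where a gene had no read, up to 3 reads could have been missed, equal to 0.739 CPM in the deepest library and 5.91 CPM in the shallowest. These limits cover counting error only.

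Some libraries stood apart before any gene of the pathway was examined. The defining adipocyte markers were present, with medians over the 24 libraries of 29.9 CPM for Adipoq, 15.1 for Plin1, 18.3 for Cidec, 81.6 for Fabp4 and 6.02 for Lep. Cidec and Lep were each at 0 in 1 library. Summed over 15 adipocyte markers, PNx replicate 6 reached 8079 CPM and NaKtide replicate 6 reached 5834 CPM, against 133 to 1314 CPM in the other 22 libraries. PNx replicate 6 also held 1628 CPM of 6 erythrocyte markers, and NaKtide replicate 6 held 6627 CPM of 15 skeletal muscle markers. The sum of 15 testis germ cell markers, which mouse visceral fat should lack, ranged from 109 to 1305 CPM, with the 3 highest values (1190, 1166 and 1305 CPM) in PNx replicates 1, 2 and 3. Genes of this list did not always move together. In NaKtide replicate 6 the sum was 665 CPM, while Prm1, Prm2 and Tnp1 were at their lowest, at 1.94, 4.53 and 0.647 CPM. The sum of 15 epididymis markers, from the duct beside the epididymal fat, ran from 42.4 CPM in PNx replicate 1 to 2919 CPM. Medians of these sums over the 24 libraries were 399 CPM for adipocyte, 560 for testis germ cell and 1461 for epididymis markers. The epididymis sum exceeded the adipocyte sum in every library except NaKtide replicate 6 and PNx replicates 1, 2 and 6. Sums of different lists do not measure tissue shares. The part of RNA from outside fat in the values of the pathway genes was not tested. In bulk tissue, fewer cells of a type and less RNA per cell cannot be told apart.

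Levels were compared between genes per length, as deposited FPKM. In Control, Akt1 stood at 3.65 ± 0.982 FPKM (SD, n = 6), Akt2 at 0.878 ± 0.411, Slc2a4 at 0.839 ± 0.549, Pik3r1 at 0.741 ± 0.157, Irs2 at 0.579 ± 0.232, Insr at 0.431 ± 0.0881, Irs1 at 0.36 ± 0.116 and Foxo1 at 0.156 ± 0.0995. Akt1 exceeded Akt2 in 6 of 6 Control libraries, by 2.77 ± 0.665 FPKM. From Akt2 down to Irs1, every neighbour in that order differed by less than the SD of the difference, and Irs1 exceeded Foxo1 by 0.204 ± 0.178 FPKM in 5 of 6 libraries. In PNx, Slc2a4 had the highest mean of the 8 genes at 5.33 ± 4.13 FPKM, beside 4.74 ± 2.03 FPKM for Akt1, and the SD of either was larger than the gap. Akt1 led in NaKtide and in PNx+NaKtide.

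None of the 8 genes differed between PNx and Control at an adjusted p under 0.1, where 0.0766% of all genes tested (20 genes) did. At an unadjusted p under 0.05, 1 of the 8 was higher and none was lower, against 18.5% of all genes higher and 6.88% lower. Over all tested genes the middle log2 fold change was 0.36, so a gene at 0 on this scale lay below the middle of the table. DESeq2, which gave no p for Irs1 in any comparison and so tested 7 of the 8, called 1 member higher (Slc2a4) and none lower, where it called 30.9% of all genes higher and 4.06% lower. Limma voom with sample weights called 5, with Slc2a4 higher and Insr, Irs1, Irs2 and Pik3r1 lower, where it called 32.7% of all genes higher and 31% lower.

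**Figure D1:**
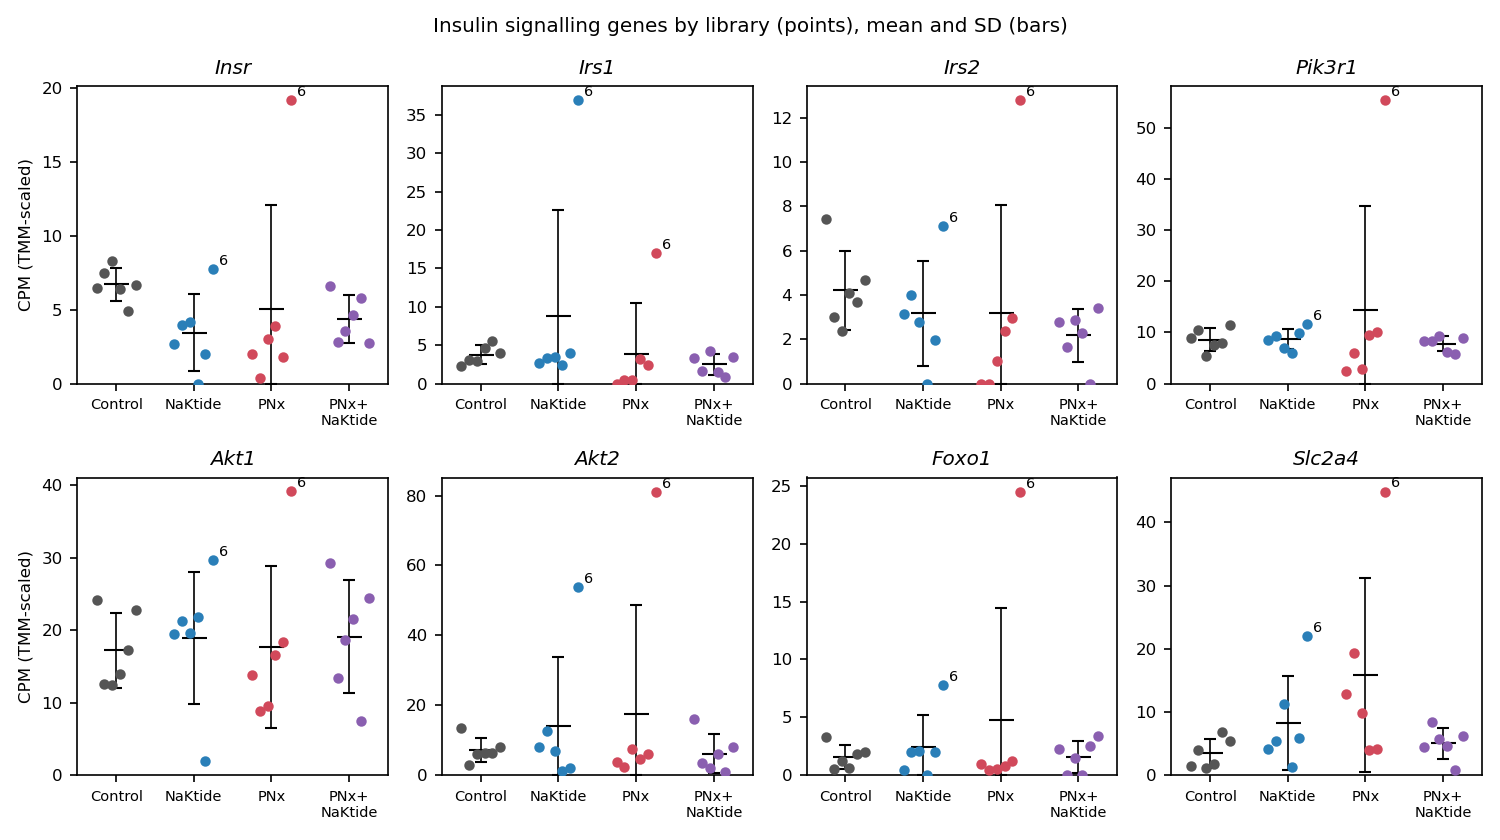
CPM of the 8 genes in each of 24 libraries, 6 per group, with each gene on its own axis from 0. Points are libraries, the short horizontal line is the group mean and the bars are the SD, cut at 0; replicate 6 of PNx and of NaKtide is numbered. PNx replicate 6 is the highest point for every gene except Irs1, which is highest in NaKtide replicate 6.

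Insr, the receptor at the head of the pathway, ranged from 4.94 to 8.28 CPM in Control (median 6.6), from 0 to 7.76 in NaKtide (median 3.34), from 0.404 to 19.2 in PNx (median 2.5) and from 2.72 to 6.64 in PNx+NaKtide (median 4.09). In PNx, 5 of 6 libraries lay below the lowest Control library and replicate 6 lay above the highest. The log2 fold change of PNx against Control was −0.40 ± 0.61 (SE; edgeR adjusted p = 0.683). Without PNx replicate 6 it was −1.60 ± 0.53 (adjusted p = 0.08), which passed the threshold. The background without that library was 3.72% of genes called lower and 11.1% called higher.

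The adaptors, like Insr, had their low PNx libraries offset by replicate 6. Irs1 ranged from 2.32 to 5.55 CPM in Control (median 3.51), from 2.42 to 36.9 in NaKtide (median 3.4), from 0 to 17 in PNx (median 1.44) and from 0.832 to 4.29 in PNx+NaKtide (median 2.5). The high ends were single libraries, NaKtide replicate 6 and PNx replicate 6, and the next values were 3.94 and 3.14 CPM. PNx replicates 1, 2 and 3 held 0, 1 and 2 reads of Irs1. Irs2 ranged from 2.37 to 7.43 CPM in Control (median 3.89), from 0 to 7.11 in NaKtide (median 2.97), from 0 to 12.8 in PNx (median 1.68) and from 0 to 3.39 in PNx+NaKtide (median 2.54). PNx replicates 1, 2 and 3 held 0, 0 and 4 reads of it, or 0, 0 and 1.01 CPM. The lowest Control library was at 2.37 CPM, which also was 4 reads, so replicate 3 lay below it in CPM only. PNx replicate 4, at 2.36 CPM (3 reads), was nearly level with that Control library. The log2 fold changes of PNx against Control were 0.05 ± 0.83 for Irs1 (adjusted p = 0.974) and −0.41 ± 0.79 for Irs2 (adjusted p = 0.752). Without PNx replicate 6 they were −1.77 ± 0.81 (adjusted p = 0.142) and −1.91 ± 0.76 (adjusted p = 0.107). When NaKtide replicate 6 was left out too, the pair passed the threshold at −1.79 ± 0.63 (adjusted p = 0.0745) and −1.93 ± 0.73 (adjusted p = 0.0863), together with Insr at −1.61 ± 0.49 (adjusted p = 0.0609), where 6.38% of all genes were called lower and 15.4% higher. Without PNx replicates 1, 2 and 3 instead, the values were 0.21 ± 0.60 for Insr, 0.91 ± 0.75 for Irs1 and 0.46 ± 0.64 for Irs2 (adjusted p from 0.64 to 0.912), so the sign for these 3 genes turned on which PNx libraries were kept.

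Pik3r1, the p85 alpha subunit, lay between 5.33 and 11.4 CPM in Control (median 8.42), 6.05 and 11.6 in NaKtide (median 8.92), 2.46 and 55.5 in PNx (median 7.74) and 5.82 and 9.29 in PNx+NaKtide (median 8.33). PNx replicate 6 alone gave 64.3% of the summed CPM of its group. Its log2 fold change of PNx against Control was 0.74 ± 0.53 (adjusted p = 0.357), and −0.53 ± 0.39 (adjusted p = 0.338) without that library.

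Akt1, the broadly expressed AKT gene, lay between 12.4 and 24.1 CPM in Control (median 15.6), 1.97 and 29.7 in NaKtide (median 20.4), 8.88 and 39.2 in PNx (median 15.1) and 7.49 and 29.3 in PNx+NaKtide (median 20). The groups overlapped, and PNx against Control gave 0.04 ± 0.44 (adjusted p = 0.957). Akt2 lay between 3 and 13.5 CPM in Control (median 6.29), 1.21 and 53.7 in NaKtide (median 7.55), 2.42 and 81.1 in PNx (median 5.33) and 0.832 and 16.1 in PNx+NaKtide (median 4.74). PNx replicate 6 held 215 of the 550 reads of Akt2, and NaKtide replicate 6 held 83. The log2 fold change of Akt2 was 1.29 ± 0.83 (adjusted p = 0.303) with all libraries and −0.57 ± 0.68 (adjusted p = 0.559) without PNx replicate 6.

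Foxo1, the transcription factor restrained by AKT, was the least counted of the 8. It lay between 0.5 and 3.25 CPM in Control (median 1.52), 0 and 7.76 in NaKtide (median 1.98), 0.404 and 24.5 in PNx (median 0.885) and 0 and 3.39 in PNx+NaKtide (median 1.82). PNx replicate 6 held 65 of its 126 reads, 15.7 times the Control mean in CPM, and the other 5 PNx libraries held between 1 and 4 reads. The log2 fold change was 1.57 ± 0.94 (adjusted p = 0.27) with all libraries and −1.0 ± 0.80 (adjusted p = 0.377) without that library.

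Slc2a4, the insulin-responsive glucose transporter, stood apart from the other 7. It ranged from 1.18 to 6.79 CPM in Control (median 2.88), from 1.21 to 22 in NaKtide (median 5.61), from 3.93 to 44.9 in PNx (median 11.3) and from 0.832 to 8.36 in PNx+NaKtide (median 5.16). In PNx, replicates 1, 2, 3 and 6 lay above the highest Control library, at 12.8, 19.4, 9.84 and 44.9 CPM, while replicates 4 and 5, at 3.93 and 4.16 CPM, lay within the Control range. The log2 fold change of PNx against Control was 2.22 ± 0.64, or 4.65-fold, with an unadjusted p of 0.00182 and an adjusted p of 0.128 (edgeR). It kept this direction in every fit that was run, but no fit left out PNx replicates 1, 2, 3 and 6 together. The adjusted p was under 0.1 with DESeq2 (2.68 ± 0.65, adjusted p = 0.00651) and with limma voom (2.06 ± 0.49, adjusted p = 0.00148). In edgeR it was under 0.1 with DESeq2 size factors (adjusted p = 0.0421, where 30.5% of all genes were called higher), with the filterByExpr filter (adjusted p = 0.0793, where 14.5% were) and with library size scaling (adjusted p = 0.0886, where 13.5% were). The same held without PNx replicate 4 (adjusted p = 0.0368, 23.1% of genes higher) and without PNx replicate 5 (adjusted p = 0.0579, 16.2% higher). Without PNx replicate 6 the value was 1.57 ± 0.60 (adjusted p = 0.0977), and without PNx replicates 1, 2 and 3 it was 2.27 ± 0.70 (adjusted p = 0.389, where no gene in the table was called).

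**Figure D2:**
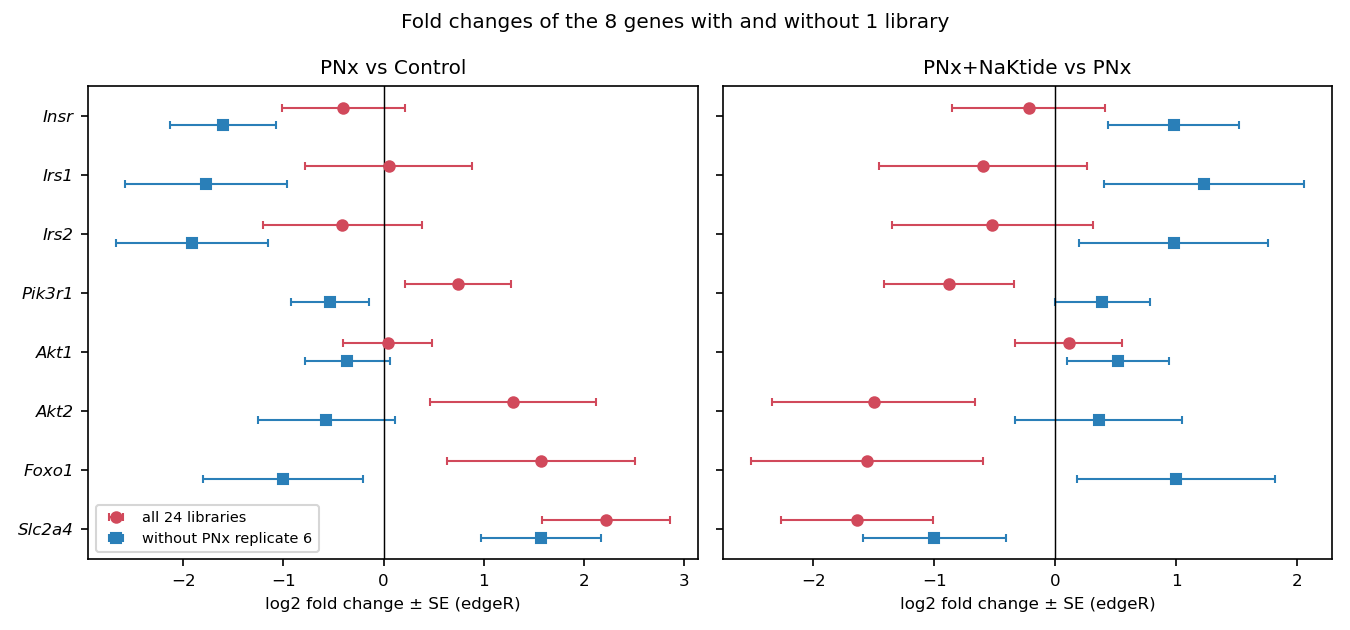
Log2 fold change of each of the 8 genes from edgeR, with bars for the SE, for PNx against Control (left) and PNx+NaKtide against PNx (right). Circles use all 24 libraries and squares leave out PNx replicate 6; on the left Slc2a4 alone stays above 0 without that library (1.57), and on the right it alone stays below 0 (−1.0).

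The libraries highest in Slc2a4 differed in their marker content. PNx replicate 6 and NaKtide replicate 6 were the libraries rich in adipocyte markers. NaKtide replicate 6 held even more of the skeletal muscle markers, at 6627 CPM beside 5834 CPM of the adipocyte markers. PNx replicates 1, 2 and 3 held only 295, 260 and 283 CPM of those markers, below the lowest Control library at 323 CPM, yet had 52, 48 and 39 reads of Slc2a4 against 2 to 11 in the Control libraries. The nearest gene on the strand opposite to Slc2a4 is Ybx2, which encodes an RNA-binding protein of germ cells. Slc2a4 lies on chromosome 11 from 69942539 to 69948188 on the minus strand (GRCm38), and Ybx2 ends 933 bases beyond its 3′ end, with no shared exon. PNx replicates 1, 2 and 3 held 174, 174 and 213 CPM of Ybx2, which ranged from 5.92 to 64.9 CPM in Control and was at 11.8, 10.7 and 33.2 CPM in PNx replicates 4, 5 and 6. NaKtide replicate 3, with 11.2 CPM of Slc2a4 (16 reads), held 114 CPM of Ybx2, the highest of its group, and 378 CPM of the adipocyte markers. In PNx+NaKtide, replicates 2, 3 and 4 held 90.8, 101 and 140 CPM of Ybx2 and 8.36, 5.72 and 4.61 CPM of Slc2a4. The part of germ cell or skeletal muscle RNA, or of reads that run on from Ybx2, in the Slc2a4 values was not tested. Ybx2 was looked at after these values were known.

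**Figure D3:**
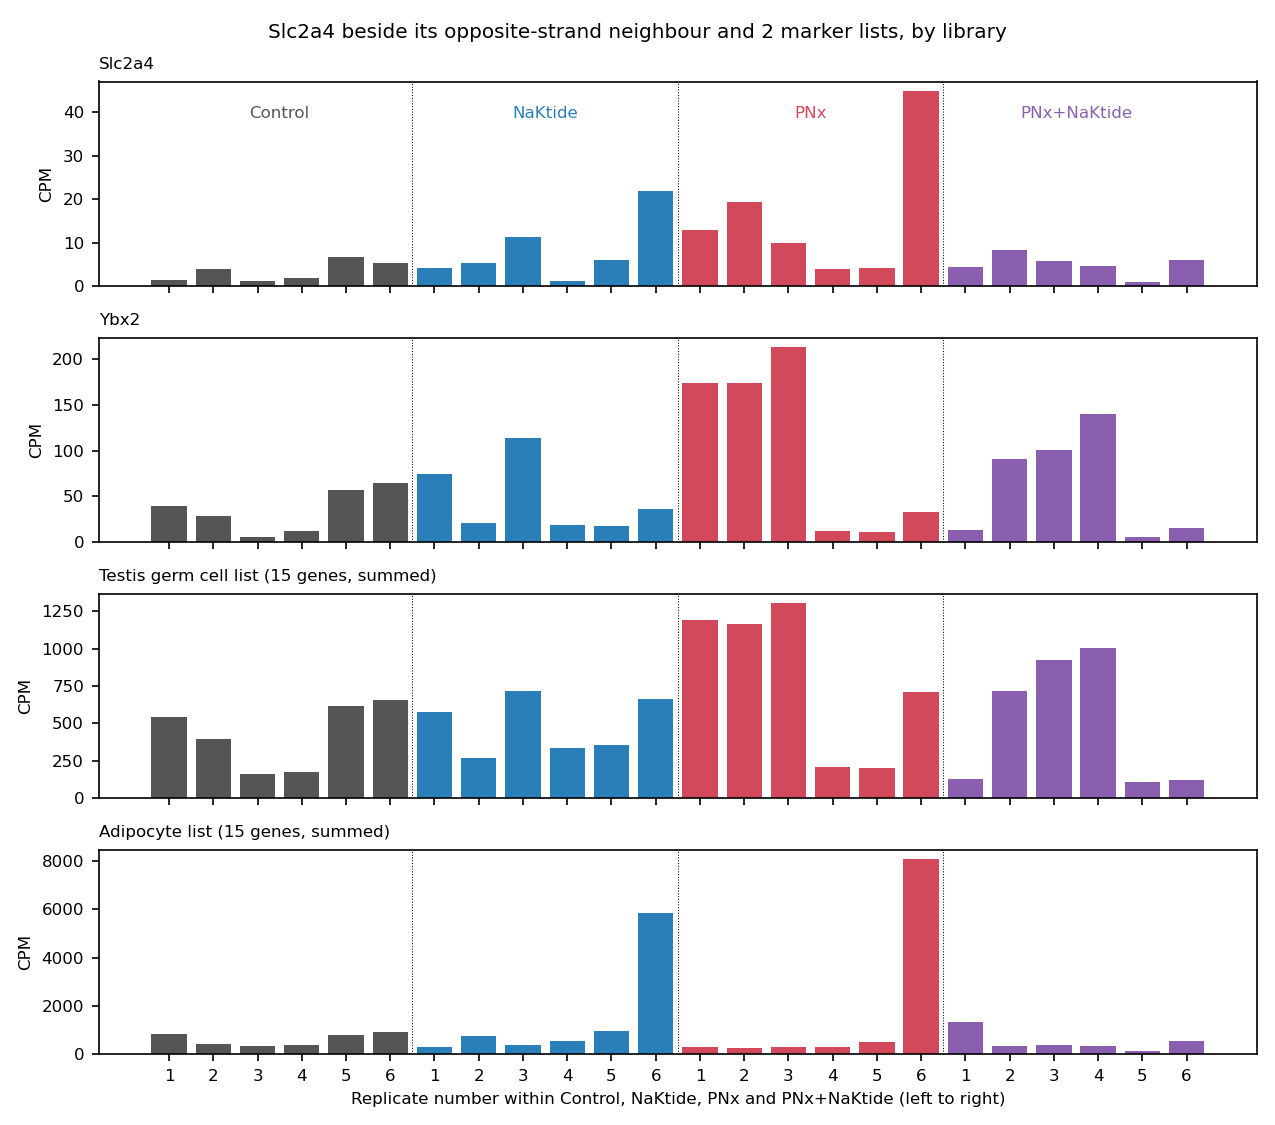
CPM in each of 24 libraries, with replicates 1 to 6 of Control, NaKtide, PNx and PNx+NaKtide from left to right, for Slc2a4, for its opposite-strand neighbour Ybx2, and for the summed testis germ cell and adipocyte markers (15 genes each). PNx replicates 1, 2 and 3 are high in Slc2a4, Ybx2 and the germ cell list and low in the adipocyte list, whereas PNx replicate 6 is highest in Slc2a4 and in the adipocyte list.

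PNx replicate 6 was the highest of the 24 libraries for 7 of the 8 genes, where 18.1% of all tested genes peaked in it. For Irs1 it came next after NaKtide replicate 6. PNx replicate 6 held between 36.9% (Akt1) and 86.4% (Foxo1) of the CPM summed over the 6 PNx libraries. No gene of the 8 had all 6 PNx libraries above all 6 Control libraries, or all below, which 0.119% and 0.368% of tested genes had.

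For 3 of the 8 genes, exons overlap those of an antisense neighbour, and the count of either gene is then uncertain. The library kit keeps strand, but the strand setting used in counting was not given in the sources used here. Irs1 shares 2822 bases (30.9% of its exon bases) with Gm9747, which held 6671 counts, 34.2 times those of Irs1. Gm9747 was at 1099 CPM in NaKtide replicate 6 and 617 in PNx replicate 6, the libraries highest in Irs1, and at 15.8, 26.2 and 16.1 CPM in PNx replicates 1, 2 and 3, the libraries lowest in it. Foxo1 shares 674 bases with Gm20402 (703 counts), and Irs2 shares 162 bases with 9530052E02Rik (385 counts). Over all libraries 79.9% of counts fell in genes with such an overlap. Among the 78 further pathway genes, the 23 with an overlap had a median of 303 counts per kilobase of exon, and the 55 without had 44.1.

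NaKtide in nephrectomised mice was compared next, as PNx+NaKtide against PNx. None of the 8 genes was called (0% of all genes were), and 1, Slc2a4, was lower at an unadjusted p under 0.05, where 8.6% of all genes were lower and 4.07% higher. Slc2a4 had a log2 fold change of −1.64 ± 0.63 (adjusted p = 0.357). The ranges overlapped, with 1 of 6 PNx+NaKtide libraries below the lowest PNx library. DESeq2 called it at −1.99 ± 0.64 (adjusted p = 0.0709), where 7.91% of genes were called lower and 1.72% higher. Limma voom called 4 of the 8 genes, Slc2a4 lower and Irs1, Irs2 and Pik3r1 higher, where it called 24% of all genes higher and 19.9% lower. In edgeR with all libraries, Foxo1 was at −1.56 ± 0.96, Akt2 at −1.50 ± 0.84, Pik3r1 at −0.88 ± 0.54, Irs1 at −0.60 ± 0.86, Irs2 at −0.52 ± 0.83, Insr at −0.22 ± 0.63 and Akt1 at 0.11 ± 0.44, beside −0.37 for the median of all genes. Without PNx replicate 6, the 7 genes other than Slc2a4 had values above 0, from 0.36 for Akt2 to 1.23 for Irs1, none of which was called. This comparison uses the same PNx libraries as PNx against Control, so opposite signs in the pair of comparisons are not independent.

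NaKtide in sham mice was not accompanied by a call in any of the 8 genes, nor in any gene (0%). At an unadjusted p under 0.05 none of the 8 passed in edgeR, against 3.95% of all genes, and limma voom called none of the 8 and DESeq2 none of 7. Slc2a4 was at 1.31 ± 0.65 (unadjusted p = 0.0536), Irs1 at 1.26 ± 0.84, Akt2 at 1.01 ± 0.83 and Insr at −0.88 ± 0.64. The first 3 of these were highest in NaKtide replicate 6, at 22, 36.9 and 53.7 CPM. Without replicate 6 of PNx and of NaKtide they were at 0.72 ± 0.58, −0.25 ± 0.60 and −0.12 ± 0.57, so the sign turned for Irs1 and Akt2, and Insr was at −1.26 ± 0.51 (unadjusted p = 0.0204, edgeR adjusted p = 1). In the other 5 NaKtide libraries Insr averaged 2.57 ± 1.7 CPM (SD), beside 6.72 ± 1.13 CPM in the 6 Control libraries. Among those 5, replicates 4 and 5, with only 1127363 and 679250 counts in all, held 0 and 1 reads of Insr. NaKtide replicate 6, which was left out, read 7.76 CPM.

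PNx+NaKtide differed from NaKtide, and from Control, in none of the 8 genes (0% of all genes called in either). At an unadjusted p under 0.05, Irs1 was lower than in NaKtide (−1.81 ± 0.87, unadjusted p = 0.0467), where 4.09% of all genes passed, and none passed against Control, where 3.61% did. The Irs1 value rested on NaKtide replicate 6, since without replicate 6 of PNx and of NaKtide it was −0.30 ± 0.62 (unadjusted p = 0.633). In either comparison limma voom called none of the 8, and DESeq2 called none of the 7 it tested, Irs1 not among them. Against Control the 8 genes lay between −0.93 ± 0.83 (Irs2) and 0.57 ± 0.65 (Slc2a4).

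The interaction asked whether nephrectomy differed in its effect between NaKtide and GFP mice. It was called for none of the 8 genes by edgeR (0% of all genes), and Slc2a4 (−2.95 ± 0.90, unadjusted p = 0.00286, adjusted p = 0.469) and Akt2 (−2.51 ± 1.18, unadjusted p = 0.0438, adjusted p = 0.53) passed at an unadjusted p under 0.05, where 9.27% of all genes did. Of the 7 members it tested, DESeq2 called Slc2a4 (adjusted p = 0.0636), where it called 0.29% of genes higher and 0.29% lower. Limma voom called 4 members, with Slc2a4 lower and Insr, Irs1 and Irs2 higher, where it called 16.1% of all genes higher and 9.45% lower. Without PNx replicate 6 the interaction was −2.31 ± 0.83 for Slc2a4 and −0.65 ± 0.94 for Akt2.

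The other genes of the pathway were read from a list of 78, of which 75 were tested, and edgeR called none in any of the 6 comparisons. For PNx against Control, 8 of 75 were higher at an unadjusted p under 0.05 and none was lower, 10.7% and 0% of the list against 18.5% and 6.88% of all genes. The median of the list was 0.26, beside 0.36 for all genes. DESeq2 called 22 of 73 higher and none lower (30.1% and 0%, against 30.9% and 4.06% of all genes), and limma voom called 17 of 75 higher and 26 lower (22.7% and 34.7%, against 32.7% and 31%). Without PNx replicate 6, edgeR called 2 higher and 3 lower (2.67% and 4%, against 11.1% and 3.72%). By role, the genes higher at an unadjusted p under 0.05 were 3 of 16 next to the receptor, 2 of 9 of PI 3-kinase and the lipid phosphatases, 1 of 8 around AKT, and 2 of 14 of GLUT4 traffic. None of 8 in glucose uptake and phosphorylation, 9 of the mTOR branch, 3 of the glycogen branch, or 8 of the FOXO family and its targets passed.

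Sh2b2, an adaptor of the insulin receptor, had the largest value named, at 2.78 ± 0.81 (adjusted p = 0.128). Its PNx libraries read 42.9, 41.6, 28.8, 0.785, 2.97 and 11.7 CPM in the order of replicates 1 to 6, and its highest Control library read 5 CPM. As for Slc2a4, PNx replicates 1, 2 and 3 were high and replicates 4 and 5 were not. The same 3 libraries held 174 to 213 CPM of Ybx2 and 1166 to 1305 CPM of the testis germ cell markers, while PNx replicates 4, 5 and 6 reached no more than 33.2 and 713 CPM. The part of germ cell RNA in the Sh2b2 values was not tested. Myo1c, a motor that carries GLUT4 vesicles, was at 1.22 ± 0.45 (adjusted p = 0.141), from 11.7 to 30.2 CPM in Control and from 10.2 to 99.3 in PNx, highest in replicate 6. On the lower side, Enpp1, a membrane protein that binds and inhibits the receptor, was at −1.74 ± 0.89 (adjusted p = 0.212). The kinase gene Mtor was at −1.24 ± 0.66 (adjusted p = 0.228), with a median of 56.6 CPM in PNx and 359 in Control and overlapping ranges. In PNx replicates 1 to 6, Enpp1 read 0, 1.21, 4.79, 13.3, 20.2 and 0.377 CPM. Mtor read 15.5, 59, 54.2, 429, 344 and 14.3 CPM there. The summed epididymis markers of these libraries read 42.4, 251, 723, 1547, 2494 and 135 CPM. The part of epididymis RNA in the Enpp1 and Mtor values was not tested. Of the remaining glucose transporters, Slc2a1 (GLUT1) was at −0.47 ± 0.36 and Slc2a3 (GLUT3) at 1.03 ± 0.54. Slc2a3 read 29.3 and 45.4 CPM in PNx replicates 1 and 3 and from 4.71 to 10.1 CPM in the other PNx libraries. Its median was 9.49 CPM in PNx and 9.02 in Control. The part of germ cell RNA in its values was not tested.

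For PNx+NaKtide against PNx, 7 of 75 list genes were lower at an unadjusted p under 0.05 and none was higher (9.33%, against 8.6% of all genes lower), with a median of −0.23 beside −0.37. DESeq2 called 9 of 62, all lower (14.5%, against 7.91% of all genes), and limma voom called 16 of 75 higher and 12 lower (21.3% and 16%, against 24% and 19.9%). Pdpk1, the kinase that activates AKT, was at −1.09 ± 0.42 (adjusted p = 0.357), and Foxo4, a relative of Foxo1, at −1.38 ± 0.60 (adjusted p = 0.37). Enpp1 was at 1.51 ± 0.88 and Mtor at 1.03 ± 0.66, against the same PNx libraries, which split for both genes. Slc2a1 and Slc2a3 were at −0.02 ± 0.37 and −0.69 ± 0.54. In NaKtide against Control, Gab1, a docking protein for PI 3-kinase, was at 0.76 ± 0.36 with 65.9 CPM in NaKtide replicate 6 and 26.5 in the next library, Vamp2, a vesicle protein of GLUT4 traffic, at 0.97 ± 0.60, Slc2a8 (GLUT8) at −0.64 ± 0.39 and Sos1, an exchange factor of the RAS branch, at −0.64 ± 0.44. In PNx+NaKtide against Control, Sh2b2 was at 1.92 ± 0.81, and its libraries again split, with 22.9, 22.1 and 20.7 CPM in replicates 2, 3 and 4 and at most 2.04 CPM in the others. Replicates 2, 3 and 4 also held 720 to 1006 CPM of the germ cell markers, against 109 to 130 CPM in the others. For the interaction, Myo1c was at −1.53 ± 0.64 and Eif4ebp1, a translation repressor below mTOR, at −2.64 ± 1.21 (adjusted p = 0.498 and 0.523), and Mtor at 1.66 ± 0.93. Eif4ebp1 stood at 66.8 CPM in PNx replicate 6 and 47.8 in NaKtide replicate 6, beside highs of 5.35 and 9.69 CPM among the remaining libraries of those groups. The adjusted p of all these values was above 0.1.

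The genes most alike to each member over the 24 libraries were found by Pearson correlation of log2 CPM, as a description across libraries that share depth and tissue makeup. Akt1 was closest to Dync1li1 (r = 0.935) and Baz1b (0.918), and these values held at 0.928 and 0.916 without replicate 6 of PNx and of NaKtide. Irs1 was closest to Mtus1 and Rce1 (both 0.928), Irs2 to Tcn2 (0.907) and Ahnak (0.885), and Insr to Tcn2 (0.837) and Xpc (0.817). Akt2 was closest to Selenop (0.920) and Eepd1 (0.913), Foxo1 to Bnip3 (0.883) and H6pd (0.882), and Pik3r1 to Sh3pxd2a (0.904) and Hspd1 (0.865). Without both libraries these 6 values were lower, at 0.808 and 0.777 for Akt2, 0.654 and 0.689 for Foxo1, and 0.849 and 0.69 for Pik3r1. Those of Irs1 were also lower at 0.833 and 0.837, of Irs2 at 0.873 and 0.853, and of Insr at 0.78 and 0.775. Slc2a4 was closest to Bscl2 (0.900), the seipin gene of lipid droplets, and to Lnx2 (0.899), which fell to 0.823 and 0.891 without both libraries. Among the 8 genes themselves, Irs1 and Irs2 correlated at 0.77 (0.74 without both libraries), and Insr and Irs2 at 0.72 (0.62 without). Slc2a4 correlated with the other 7 at 0.12 (Insr) to 0.53 (Akt2) over 24 libraries. Without those libraries its correlations ran from −0.34 (Insr) to 0.06 (Akt2). Slc2a4 made up between 8.77% and 51.1% of the summed counts of the 8 genes in PNx libraries (median 21.9%), beside 2.07% to 12.5% in Control (median 6.05%), 3.7% to 20% in NaKtide (median 10.5%) and 3.45% to 21.1% in PNx+NaKtide (median 9.97%).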

How the data were processed

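RNA from visceral adipose tissue of 24 mice was sequenced from stranded mRNA libraries with paired reads of 50 bases. According to the methods and processing notes, the authors trimmed reads with Trimmomatic 0.38, aligned them to GRCm38 with HISAT2 2.1.0 and counted reads per gene with GenomicAlignments. Raw counts per gene, a normalized form of them (not used here) and FPKM were deposited. FPKM were used only to compare levels between genes. Neither the strand setting nor the annotation release of the counting is given in the sources used here. The length behind the deposited FPKM was within 1% of the GENCODE M21 exon union for 97% of 37819 genes.

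Symbols, coordinates and exon overlaps came from GENCODE M21, which held 99.9% of the gene identifiers. Genes with more than 10 counts in all were tested with edgeR 4.0.16 in R 4.3.3 (TMM, robust quasi-likelihood F-test, 1 fit of 4 group means, Benjamini-Hochberg adjusted p under 0.1 over 26116 genes). The SE is the absolute log2 fold change over the square root of F. The biological coefficient of variation was 71.4%. Groups and replicate numbers came from the sample labels, and the labels do not say that a number links mice. The alternatives were DESeq2 1.42.0, limma 3.58.1 voom with sample weights, other scalings and filters, the replicate number as a block, a fit restricted to the compared groups, and fits without libraries. The test code was checked on simulated counts. Named pathway genes were the 2 of lowest p in each direction per comparison with at least 5 CPM, plus Slc2a1 and Slc2a3. Some results under this rule are not reported here. Like genes (the 2 of highest r among named protein-coding genes with at least 5 CPM) used log2 CPM with a prior count of 2. The members and lists were chosen with earlier results of these data known. P-values measure the spread between mice of a group.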

Additional observations from a re-analysis of the deposited data

Results flagged for a closer look

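The spread of each of the 8 genes was examined in each group of 6 libraries, as CPM. In 11 of these 32 sets, the highest or lowest library lay far from the other 5 by Dixon's criterion. Its nominal rate of about 1 in 20 is for independent sets of normally distributed values. These sets share libraries and rest on low counts, so that rate is no background for them. The share of all genes flagged is not given here. PNx replicate 6 accounted for 7 of the 11 sets, being far above the other PNx libraries for Insr (19.2 CPM), Irs1 (17 CPM), Irs2 (12.8 CPM), Pik3r1 (55.5 CPM), Akt1 (39.2 CPM), Akt2 (81.1 CPM) and Foxo1 (24.5 CPM). For Slc2a4 the same library was highest in PNx at 44.9 CPM, with the next at 19.4 CPM, and fell only just short of being set apart by this criterion. NaKtide replicate 6 accounted for 3, being far above the other NaKtide libraries for Irs1 (36.9 CPM), Akt2 (53.7 CPM) and Foxo1 (7.76 CPM). Both libraries were the richest of the 24 in adipocyte markers, at 8079 and 5834 CPM. NaKtide replicate 6 also held 6627 CPM of skeletal muscle markers, and PNx replicate 6 held 1628 CPM of erythrocyte markers. The part of these tissues in the values was not tested. NaKtide replicate 5, with the fewest counts of the tested genes after scaling, was far below its group for Akt1 at 1.97 CPM, which is 1 read.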

How the results depend on the processing

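For PNx against Control, edgeR called none of the 8 genes and none of 75 pathway genes, and other settings called more. DESeq2 size factors called 1 and 20 (30.5% of all genes were called higher), library size scaling 1 and 7 (13.5%), the filterByExpr filter 1 of 5 and 4 of 55 (14.5%), DESeq2 1 of 7 and 22 of 73 (30.9%), limma voom 5 and 43 (32.7% higher, 31% lower), and leaving out replicate 6 of PNx and of NaKtide 4 and 13 (15.4% higher, 6.38% lower). Leaving out each library in turn gave 0 to 2 and 0 to 14 calls. The 2 members were called without PNx replicate 6, where 11.1% of all genes were called higher and 3.72% lower. The 14 pathway genes were called without PNx replicate 4, where 23.1% of all genes were called higher. Where a single member was called it was Slc2a4, at an edgeR adjusted p of 0.0368 without PNx replicate 4 and 0.0579 without PNx replicate 5. The middle log2 fold change over all genes, 0.36 with TMM, was 0.76 with DESeq2 size factors and 0.70 with library size scaling. For PNx+NaKtide against PNx, DESeq2 called 1 member and 9 pathway genes and limma voom 4 and 28, and for the interaction DESeq2 called 1 member and limma voom 4 members and 17 pathway genes. No other setting tried changed these counts from 0, the range over left-out libraries included, and the other 3 comparisons kept counts of 0 throughout.

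In both comparisons of PNx that follow, the sign of the log2 fold change turned for 7 of the 8 genes in some fits, and for Slc2a4 in none. No fit left out PNx replicates 1, 2, 3 and 6, the PNx libraries high in Slc2a4, together. For PNx against Control, limma voom gave −2.61 for Irs1, −1.06 for Pik3r1, −0.54 for Akt1, −0.34 for Akt2 and −0.84 for Foxo1. Without replicate 6 of PNx and of NaKtide, the values were −1.79, −0.53, −0.37, −0.57 and −1.0 in that order. Without PNx replicates 1, 2 and 3, Insr was at 0.21 and Irs2 at 0.46, and with library size scaling Insr was at 0.02. Over single left-out libraries, Irs1 ranged from −1.77 to 0.33, Pik3r1 from −0.53 to 0.96, Akt1 from −0.36 to 0.18, Akt2 from −0.57 to 1.57 and Foxo1 from −1.0 to 1.93, each lowest without PNx replicate 6. For PNx+NaKtide against PNx, limma voom gave 1.05 for Insr, 2.05 for Irs1, 1.98 for Irs2, 0.98 for Pik3r1 and 0.20 for Foxo1. Without both replicates 6, Insr was at 0.98, Irs1 at 1.24, Irs2 at 1.00, Pik3r1 at 0.39, Akt2 at 0.36 and Foxo1 at 1.00. Over single left-out libraries, Insr ranged from −0.46 to 0.98, Irs1 from −0.89 to 1.23, Irs2 from −0.80 to 0.98, Pik3r1 from −1.10 to 0.39, Akt1 from −0.05 to 0.52, Akt2 from −2.07 to 0.36 and Foxo1 from −1.93 to 1.00. Akt1 was at −0.13 with DESeq2 size factors, −0.12 with library size scaling, −0.06 with filterByExpr, −0.14 with DESeq2 and −0.32 without PNx replicates 1, 2 and 3. The cause was not tested.

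With the replicate number as a block, edgeR called 0 members and 0 pathway genes in every comparison. The block turned Irs1 to −1.04 and Akt1 to −0.04 in PNx against Control, and Insr to 0.35, Irs1 to 0.50 and Irs2 to 0.01 in PNx+NaKtide against PNx. The numbers are not known to pair mice, since same-numbered libraries correlated in their deviations between −0.592 and 0.712. Depth limits the low genes: Foxo1, Irs1 and Irs2 did not pass filterByExpr, and a count of 0 in the shallowest library allows 5.91 CPM.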
